A study of Bos taurus with 6 samples.

Results

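The 8 genes described here carry glucose and lactate across cell membranes or accompany the carriers to the membrane. They were taken from the table of genes by symbol, which found all 8 of them among 47249 genes. SLC2A1, SLC2A3 and SLC2A8 encode the glucose transporters GLUT1, GLUT3 and GLUT8. SLC16A1, SLC16A7 and SLC16A3 encode the monocarboxylate transporters MCT1, MCT2 and MCT4, which move lactate and pyruvate together with a proton. BSG encodes basigin and EMB encodes embigin, membrane glycoproteins that bind monocarboxylate transporters and bring them to the cell surface.

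The libraries came from testes of untreated local cattle of the Wandong breed, namely from 3 immature animals at an age of 3 months (calf 1 to calf 3) and 3 mature ones at an age of 3 years (bull 1 to bull 3), with 1 library per animal. Total RNA was depleted of ribosomal RNA and made into strand-specific libraries. Levels are given as FPKM, a fragment number scaled to transcript length and to the mapped fragments of the library, which allows genes to be compared within a library. The tables hold no fragment counts, so the depth behind a single value is unknown.

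The label of calf 3 is in doubt, and the comparisons of the 8 genes are therefore given with and without this library. The summed FPKM of 5 oligodendrocyte markers was 12343 in calf 3 against 3.35 in calf 1, 4.17 in calf 2 and 4.69 to 10.1 in the bulls. The 5 astrocyte markers summed to 1680 in calf 3 and to at most 36.2 in any other library. The 6 neuron markers summed to 626 in calf 3 and to at most 15.2 elsewhere. In contrast, 7 Sertoli cell markers summed to 15.0 in calf 3, where 3 of them were listed at 0, against 1795 and 1471 in calf 1 and calf 2. Of these Sertoli markers, 6 lay below 1 in calf 3, as did all 8 Leydig cell entries, with 4 at 0. The library labelled calf 3 thus held nervous tissue markers at high levels, and most Sertoli and all Leydig cell markers below 1. The Sertoli cell marker SOX9 was an exception at 13.7. Peritubular myoid cells, another somatic cell type of the testis, differed from this, since only 1 of their 5 markers lay below 1 in this library. Their sum there was 14.7, while calf 1 had 35.1 and calf 2 had 47.2.

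In the seminiferous tubule, Sertoli cells take up glucose, convert much of it to lactate and export the lactate to the germ cells that lie beyond the blood-testis barrier. Spermatocytes and spermatids are known to depend on lactate as a fuel, while spermatozoa can also use sugars directly. GLUT1 is the classical glucose carrier of Sertoli cells and of the endothelium of the blood-brain barrier, GLUT3 is a high-affinity carrier known from neurons and sperm, MCT4 is the exporter of lactate-producing cells, and MCT2 is a high-affinity importer.

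The comparison between bulls and calves asked which of these carriers differed between the immature and the mature testis. Values were compared as log2(FPKM + 1), and a gene was called when its adjusted p in limma was below 0.05 and its log2 fold change (bull minus calf) was at least 1 in size. A gene was tested if 3 or more of the 6 libraries held it at 1 FPKM or above, and all 8 genes passed this filter. Of these, 4 were called and all 4 were higher in bulls, namely SLC2A3, SLC2A8, SLC16A3 and SLC16A7. Among the 18115 genes tested, 35.7% were called higher and 9.61% lower in bulls. Without calf 3, the same 4 genes were called higher and BSG was called lower, against 37.9% and 13.6% of all genes. The median log2 fold change of the 8 genes was 1.11 with all libraries and 1.04 without calf 3, against 0.43 for all genes in both fits. Transcripts named AS (antisense) or OT (overlapping) are summed into some gene rows, as described below. With them left out, the median of the 8 genes was 0.73, and 0.52 without calf 3. The median of all genes was then 0.37 and 0.36.

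The balance of calls over all genes depended on the scaling. As deposited, 6474 genes were called higher and 1741 lower, while median centring gave 4693 and 3631, and quantile normalization gave 3827 and 4538. Rescaling each library to the same total (TPM) went the other way, with 6952 higher and 1151 lower. In bulk tissue, fewer cells of a type and less RNA per cell cannot be told apart. The summed marker levels differed between the groups. The 5 elongating spermatid markers summed to 0.572 to 0.792 FPKM in calves and 13292 to 15152 FPKM in bulls. The 7 Sertoli cell markers summed to 1795 and 1471 FPKM in calf 1 and calf 2 and to 120 to 151 FPKM in bulls. The histology of the paper reports more Sertoli cells in mature testes, so a lower sum is not read here as fewer cells. The part of cell composition in the differences below was not tested.

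**Figure D1:**
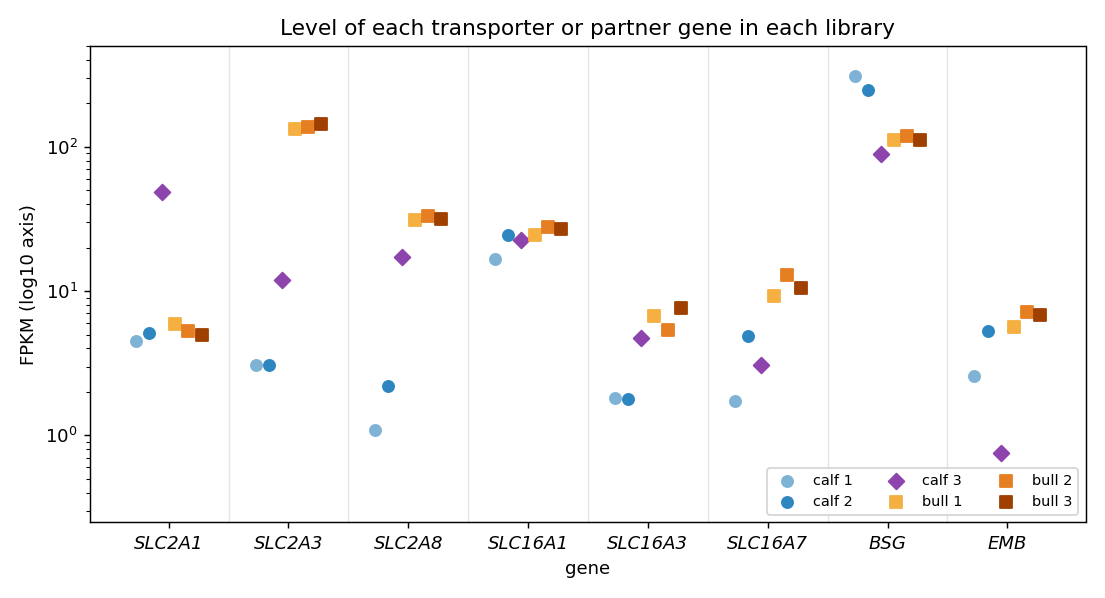
FPKM of the 8 genes on a log10 axis in each library, with 1 point per library, circles for calf 1 and calf 2, diamonds for calf 3 and squares for bulls. The 3 bulls lie at 133 to 145 for SLC2A3 and at 31.1 to 33.3 for SLC2A8, above every calf, and the diamond of calf 3 lies far above calf 1 and calf 2 for SLC2A1 and SLC2A8 and below them for BSG and EMB.

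SLC2A3 had the largest difference of the 8 genes and was the most abundant of them in the mature testis. The gene (ENSBTAG00000004556) spans chr5:101438341-101451219, in the coordinates of an ARS-UCD assembly as for all positions here. It measured 3.06, 3.08 and 11.9 FPKM in the calves, given here and below in the order of their numbers, and 133, 137 and 145 FPKM in the bulls. The bulls lay within a narrow range far above every calf, at a mean of 138 ± 6.22 (SD, n = 3). The log2 fold change was 4.54 ± 0.47 (SE, limma adjusted p = 0.000412) with all libraries and 5.10 ± 0.09 (adjusted p = 5.32e-07) without calf 3. On the FPKM scale, the mean of the bulls was 45.0 times that of calf 1 and calf 2. A single annotated transcript, SLC2A3-201, carried the whole of the gene's FPKM in each library.

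SLC2A8 encodes a carrier that is held largely on intracellular membranes and is known from testis and brain. The gene (ENSBTAG00000006957, chr11:98149418-98158448) measured 1.09, 2.20 and 17.1 FPKM in the calves and 31.1, 33.3 and 31.5 FPKM in the bulls. All bulls were higher than all calves, and calf 3 lay between calf 1 and calf 2 on one side and the bulls on the other. Bulls exceeded calves by a log2 fold change of 2.73 ± 0.79 (SE, limma adjusted p = 0.0273), and 3.67 ± 0.19 (adjusted p = 1.55e-05) without calf 3, when the mean of the bulls was 19.4 times that of calf 1 and calf 2. With calf 3 kept, leaving out any other library raised the adjusted p of SLC2A8 above 0.05, so its call with calf 3 present needed all 6 libraries.

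SLC2A1 did not follow the other glucose carriers. The gene (ENSBTAG00000009617, chr3:103299239-103368548) measured 4.50, 5.10 and 48.6 FPKM in the calves and 5.88, 5.29 and 4.93 FPKM in the bulls. Calf 3 was 10.1 times the mean of calf 1 and calf 2, while the other 5 libraries lay close together and the groups overlapped. Between the groups, the log2 fold change was -0.90 ± 0.86 (SE, limma adjusted p = 0.410) with all libraries and 0.14 ± 0.14 (adjusted p = 0.417) without calf 3, and neither was a call. Without calf 3, its direction depended on the scaling, with -0.37 under quantile normalization and -0.36 under median centring. Under TPM it was 0.57 (limma adjusted p = 0.00972), below the fold needed for a call. The 5 endothelial markers summed to 33.3 FPKM in calf 3 and to 8.91 to 22.3 in the other libraries, and their part in its SLC2A1 level was not tested.

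The near-equal gene level of SLC2A1 in calf 1, calf 2 and the bulls was made of different transcripts. The gene row equals the sum of 4 transcripts in the table of transcripts. The annotated transcript SLC2A1-201 (chr3:103309039-103337423) measured 3.80, 4.35 and 48.5 FPKM in the calves and 2.67, 2.40 and 2.68 FPKM in the bulls, lower in every bull than in every calf. An assembled transcript named SLC2A1-AS1 (chr3:103333688-103368548), AS standing for antisense, measured 0.0220, 0.0196 and 0 FPKM in the calves and 3.21, 2.88 and 1.80 FPKM in the bulls. It made up 54.5%, 54.6% and 36.4% of the gene's FPKM in bull 1, bull 2 and bull 3 and less than 0.5% in each calf.

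The log2 fold change of SLC2A1-AS1 was 1.82 ± 0.18 (SE, limma adjusted p = 0.000360), and 1.81 (adjusted p = 0.00107) without calf 3. This transcript passed the filter only through the bulls, so that its difference is partly fixed by the filter. SLC2A1-201 gave -1.60 ± 0.91 (adjusted p = 0.191) with all libraries and -0.50 (adjusted p = 0.0305) without calf 3, which is under the fold needed for a call. The genomic span of SLC2A1-AS1 is 34861 bp, of which 3736 bp (10.7%) overlap that of SLC2A1-201. Most of the rest lies over unnamed loci assembled by the authors, with 87.0% of the span over XLOC_181242, at 0 to 0.186 FPKM in the calves and 1.66 to 5.29 FPKM in the bulls, and 86.5% over XLOC_175276, at 0.0155 to 4.21 and 0.468 to 1.41 FPKM. Whether the counting used the strand is not given in the sources used here, so fragments of both transcripts in the shared stretch cannot be told apart. With AS and OT transcripts taken out of the sum, OT standing for overlapping, the gene measured 4.47, 5.08 and 48.6 FPKM in the calves and 2.67, 2.40 and 3.14 FPKM in the bulls. Its log2 fold change was then -1.67 ± 0.87 (adjusted p = 0.152), and -0.63 ± 0.15 (adjusted p = 0.0104) without calf 3, still under the fold for a call.

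Of the summed FPKM of the 3 glucose carriers, SLC2A1 supplied 52.0%, 49.1% and 62.6% in the calves and 3.47%, 3.02% and 2.72% in the bulls. SLC2A3 supplied 35.3%, 29.7% and 15.3% in the calves and 78.2%, 78.0% and 79.9% in the bulls. The leading glucose carrier transcript was thus SLC2A1 in every calf and SLC2A3 in every bull, with no overlap for either share. An exact two-sided permutation test gave p = 0.1 for both shares, the smallest value that 3 against 3 libraries allow, and p = 0.2 without calf 3, the smallest for 2 against 3. The share of SLC2A8 was 12.7%, 21.2% and 22.1% in the calves and 18.3%, 19.0% and 17.4% in the bulls, overlapping between the groups (exact permutation p = 1, and p = 0.8 without calf 3). The sum itself was 8.65 and 10.4 FPKM in calf 1 and calf 2, 77.7 in calf 3, and 170, 175 and 181 in the bulls. Within the libraries, SLC2A3 was 0.680, 0.604 and 0.245 times SLC2A1 in the calves and 22.6, 25.9 and 29.4 times SLC2A1 in the bulls.

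**Figure D2:**
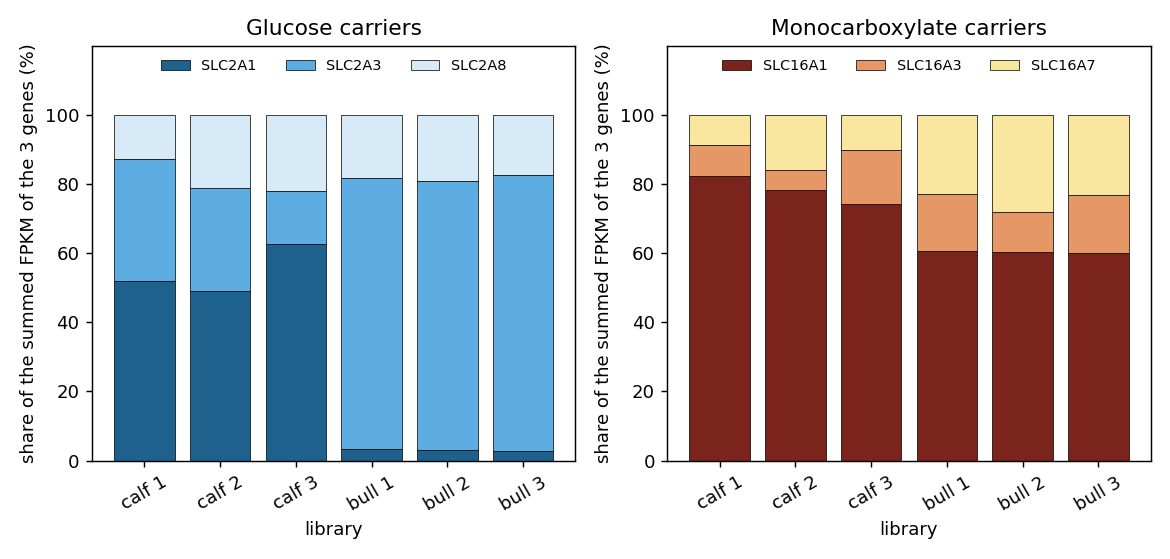
Share in percent of the summed FPKM of the 3 glucose carriers (left) and the 3 monocarboxylate carriers (right) in each library, with 1 stacked bar per library. SLC2A1 takes 49.1% to 62.6% in calves and SLC2A3 takes 78.0% to 79.9% in bulls, while SLC16A1 remains the largest monocarboxylate carrier in all libraries at 60.0% to 82.5%.

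Among the monocarboxylate carriers, the gene rows differed by log2 fold changes of 0.33 to 1.55. SLC16A1, the widely expressed carrier MCT1, was the most abundant of the 3 in every library. The gene (ENSBTAG00000015107, chr3:30376064-30411742) measured 16.6, 24.3 and 22.5 FPKM in the calves and 24.7, 28.0 and 27.1 FPKM in the bulls. The groups did not overlap, but the highest calf, calf 2, lay just below the lowest bull. This gave a log2 fold change of 0.33 ± 0.18 (SE, limma adjusted p = 0.176) and 0.38 ± 0.17 (adjusted p = 0.0843) without calf 3, and SLC16A1 was not called in any alternative, with its direction turning to -0.38 under quantile normalization and -0.16 under median centring.

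SLC16A7, the gene of MCT2, was higher in bulls. The gene (ENSBTAG00000021287, chr5:53698084-53892992) measured 1.73, 4.92 and 3.09 FPKM in the calves and 9.28, 12.9 and 10.5 FPKM in the bulls. Calf 3 lay between calf 1 and calf 2, and every bull was above every calf. The log2 fold change was 1.55 ± 0.32 (SE, limma adjusted p = 0.00754) and 1.55 ± 0.34 (adjusted p = 0.00613) without calf 3, with the mean of the bulls 3.28 times that of calf 1 and calf 2. The call was made under all 19 alternatives, with log2 fold changes of 1.005 to 2.01. As SLC16A7 holds no AS or OT transcript, the alternatives that leave those out could not change its fold change. The annotated transcript SLC16A7-201 made up 97.7% of the gene in calf 1 and calf 2 and 96.7% in the bulls.

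SLC16A3, the gene of MCT4, was called higher in bulls, but the transcript behind that call lies mostly over another gene. The gene row (ENSBTAG00000017461, chr19:50597252-50642204) measured 1.81, 1.78 and 4.73 FPKM in the calves and 6.70, 5.36 and 7.57 FPKM in the bulls. Every bull was above every calf. For the row as deposited, the log2 fold change was 1.08 ± 0.34 (SE, limma adjusted p = 0.0354), and 1.42 ± 0.17 (adjusted p = 0.000470) without calf 3. With calf 3 kept, leaving out any other library ended this call as well (adjusted p = 0.0688 to 0.116).

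The assembled transcript SLC16A3-OT1 (chr19:50597252-50635882) measured 0.823, 1.34 and 0.975 FPKM in the calves and 6.47, 4.97 and 7.21 FPKM in the bulls. Its log2 fold change was 1.81 ± 0.22 (SE, limma adjusted p = 0.000792), and 1.79 (adjusted p = 0.00113) without calf 3, and it stood at 1 FPKM or above in the bulls and in calf 2 only. It supplied 96.5%, 92.8% and 95.2% of the SLC16A3 row in the bulls and 45.5%, 75.0% and 20.6% in the calves. Of its genomic span of 38631 bp, 34162 bp (88.4%) overlap CSNK1D, which encodes a casein kinase, and 1566 bp overlap SLC16A3-201. CSNK1D itself measured 15.8, 22.2 and 14.1 FPKM in the calves and 34.9, 26.9 and 29.1 FPKM in the bulls.

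The annotated SLC16A3-201 (chr19:50634317-50639281) moved the other way. It measured 0.981, 0.441 and 3.75 FPKM in the calves and 0.234, 0.384 and 0.366 FPKM in the bulls, below every calf, and did not pass the filter for a test. With SLC16A3-OT1 left out, the log2 fold change of the gene was -0.85 ± 0.43 (SE, limma adjusted p = 0.145), and -0.35 ± 0.16 (adjusted p = 0.0911) without calf 3. The higher value of SLC16A3 in bulls therefore held for the row as deposited and not for its annotated transcripts.

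**Figure D3:**
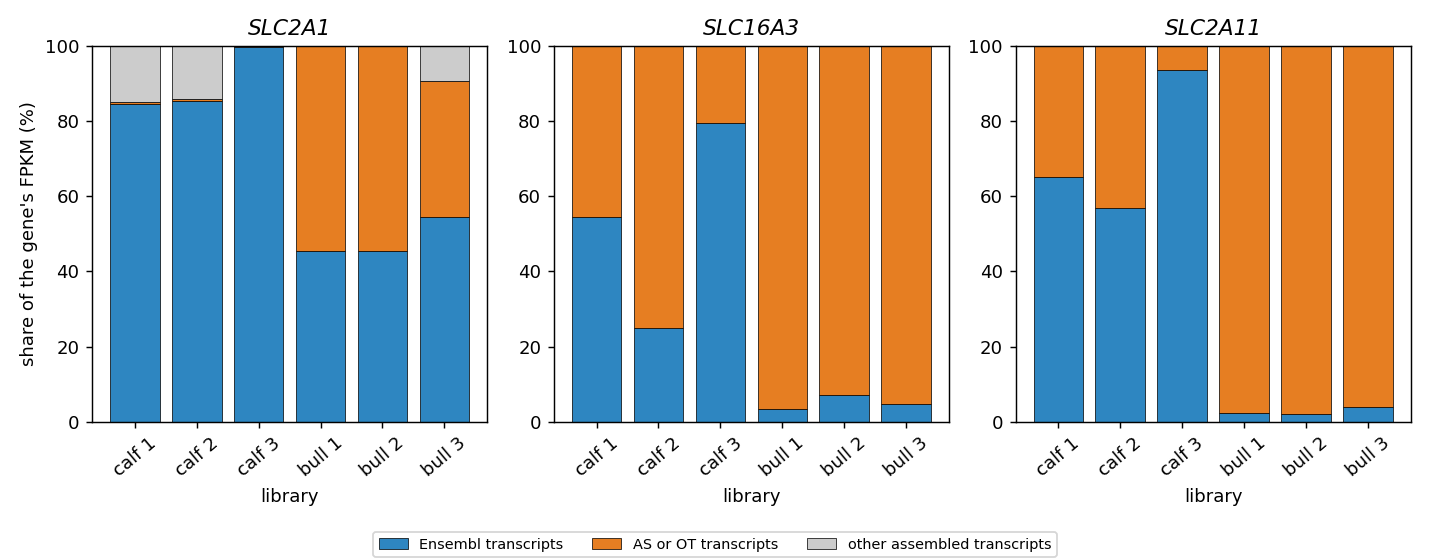
Share in percent of the FPKM of SLC2A1, SLC16A3 and SLC2A11 that annotated Ensembl transcripts, transcripts named AS or OT and other assembled transcripts supply, with 1 stacked bar per library. AS or OT transcripts take 36.4% to 54.6% of SLC2A1 and 92.8% to 96.5% of SLC16A3 in bulls, against less than 0.5% and 20.6% to 75.0% in calves.

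Such transcripts were common in the tables, with 6223 named AS and 2492 named OT among 108527 transcripts. Of the 18115 genes tested, 3674 (20.3%) held at least 1 of them, and the call of 328 of these (8.93%) differed once they were left out. Of the 8 carriers and partners, SLC2A1, SLC16A1 and SLC16A3 held one, and only the call of SLC16A3 differed. In SLC16A1, SLC16A1-AS1 supplied 0.103% of the gene in calf 1 and calf 2 and 0.311% in the bulls.

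Of the summed FPKM of the 3 monocarboxylate carriers, SLC16A1 supplied 82.5%, 78.4% and 74.2% in the calves and 60.7%, 60.5% and 60.0% in the bulls. SLC16A7 supplied 8.56%, 15.9% and 10.2% in the calves and 22.8%, 27.9% and 23.2% in the bulls. Neither share overlapped between the groups (exact two-sided permutation p = 0.1 for each, and p = 0.2 without calf 3). With SLC16A3-OT1 and SLC16A1-AS1 left out, SLC16A1 supplied 76.6% to 86.0% in calves and 67.7% to 72.2% in bulls, and SLC16A7 supplied 8.92% to 16.6% and 27.2% to 31.3%. SLC16A3 then supplied 5.09%, 1.502% and 12.8% in the calves and 0.684%, 0.930% and 0.972% in the bulls, whereas with these transcripts it supplied 5.75% to 15.6% and 11.6% to 16.8% (exact permutation p = 0.2 with and without calf 3).

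BSG was the most abundant of the 8 genes in the calves and the only one called lower in bulls in either fit. The gene (ENSBTAG00000016648, chr7:43201562-43208656) measured 308, 247 and 88.4 FPKM in the calves and 112, 119 and 112 FPKM in the bulls. Calf 1 and calf 2 lay above all bulls and calf 3 lay below all of them. With all libraries, the log2 fold change was -0.72 ± 0.48 (SE, limma adjusted p = 0.243), which is no call, and -1.27 ± 0.12 (adjusted p = 0.000183) without calf 3. The mean of calf 1 and calf 2 was then 2.43 times that of the bulls. A single transcript, BSG-201, carried the whole of the gene. Rescaling each library to TPM, with calf 3 left out, gave -0.76 (adjusted p = 0.00199), under the fold for a call.

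EMB was present at a far lower level than BSG. The gene (ENSBTAG00000044010, chr20:28669791-28735836) measured 2.60, 5.25 and 0.759 FPKM in the calves and 5.60, 7.12 and 6.79 FPKM in the bulls. The bulls lay above every calf, by a small margin over calf 2. The log2 fold change was 1.13 ± 0.46 (SE, limma adjusted p = 0.0831) and 0.66 ± 0.26 (adjusted p = 0.0564) without calf 3, and EMB was not called.

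EMB made up 0.835%, 2.08% and 0.851% of the summed FPKM of BSG and EMB in the calves and 4.76%, 5.65% and 5.74% in the bulls, with no overlap (exact two-sided permutation p = 0.1, and p = 0.2 without calf 3). BSG was 18.5, 10.2 and 3.93 times SLC16A1 in the calves and 4.54, 4.24 and 4.12 times SLC16A1 in the bulls (exact permutation p = 0.4, and p = 0.2 without calf 3). The bulls lay close together in this ratio, and calf 3 lay below them while calf 1 and calf 2 lay above. The sum of BSG and EMB was 311, 252 and 89.2 FPKM in the calves and 118, 126 and 118 FPKM in the bulls.

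EMB was spread over 11 transcripts, 10 of them assembled by the authors. The annotated EMB-201 supplied 1.56% of the gene in calf 1 and calf 2 and 0.305% in the bulls. The largest, TCONS_00174026, measured 1.61, 1.32 and 0 FPKM in the calves and 2.16, 2.26 and 3.95 FPKM in the bulls. Its log2 fold change of 1.03 was not called (limma adjusted p = 0.0847). TCONS_00174027 measured 0, 1.12 and 0 FPKM in the calves and 2.15, 2.03 and 1.52 FPKM in the bulls, and was called at 1.17 (adjusted p = 0.0245) with all libraries but not at 0.99 without calf 3.

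In all, the 8 genes held 25 transcripts, of which 10 passed the filter and 15 were not tested. Of the tested transcripts, 6 were called, all higher in bulls, against 34.8% called higher and 9.37% lower among the 23212 transcripts tested. These were SLC2A3-201, SLC2A8-201, SLC16A7-201, SLC2A1-AS1, SLC16A3-OT1 and TCONS_00174027 of EMB. Among them, SLC2A1-AS1 passed the filter only through the bulls, and SLC16A3-OT1 and TCONS_00174027 through the bulls and calf 2, so that these calls are partly fixed by the filter. Without calf 3, 5 were called higher and BSG-201 lower, against 36.1% and 13.1% of all transcripts.

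**Figure D4:**
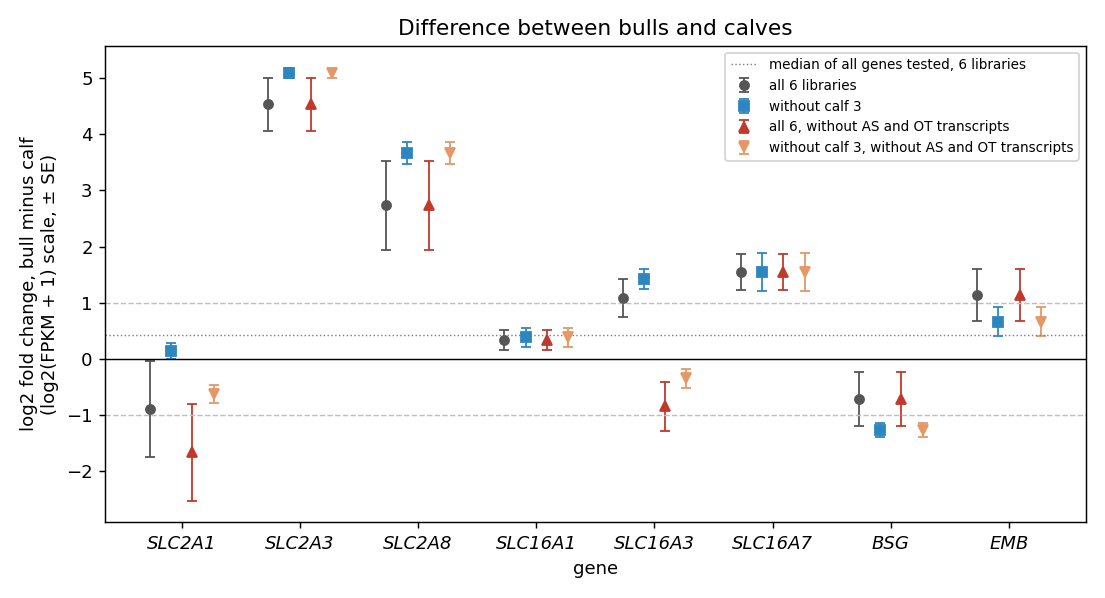
Log2 fold change (bull minus calf, log2(FPKM + 1) scale) of the 8 genes with its SE, with and without calf 3 and with and without AS and OT transcripts. The dashed lines mark the fold needed for a call and the dotted line marks the median of all genes at 0.43. SLC2A3, SLC2A8 and SLC16A7 hold no AS or OT transcript and lie above 1 with and without calf 3. SLC16A3 changes from 1.08 to -0.85 once SLC16A3-OT1 is left out.

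For 6 of the 8 genes, the FPKM of every bull was above that of every calf, which held for 46.1% of all genes tested. SLC2A1 and BSG were the 2 genes whose groups overlapped. Without calf 3, the bulls lay above both calves in 6 genes, against 53.5% of all genes, and below them in BSG, against 30.9%. These counts use the rows as deposited, where SLC16A3 is among the 6 genes in both cases. With AS and OT transcripts left out, every bull lay below every calf in SLC16A3 and in SLC2A1, with and without calf 3.

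Ordered by level, calf 1 and calf 2 had BSG first and SLC16A1 second, each clear of the next. SLC2A1, EMB, SLC16A7 and SLC2A3 followed at means of 4.80, 3.92, 3.32 and 3.07 FPKM, where each overlapped its neighbour in range, and SLC16A3 and SLC2A8 came last at 1.79 and 1.65 FPKM, also overlapping. In the bulls, SLC2A3 came first, followed by BSG, SLC2A8, SLC16A1 and SLC16A7 at means of 138, 114, 32.0, 26.6 and 10.9 FPKM, none of which overlapped the next. SLC16A3, EMB and SLC2A1 closed the order at 6.55, 6.50 and 5.37 FPKM and overlapped their neighbours. In the rows as deposited, SLC2A8 moved from the last place to the third, and SLC2A1 from the third to the last. With AS and OT transcripts left out, SLC16A3 was last in both groups. Its means were then 0.715 FPKM in calf 1 and calf 2 and 0.328 FPKM in the bulls, where SLC2A1 stood at 2.74 FPKM. In calf 3 the order was BSG, SLC2A1, SLC16A1, SLC2A8, SLC2A3, SLC16A3, SLC16A7 and EMB.

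The genes whose levels over the 6 libraries were nearest to each carrier were found by Euclidean distance on log2(FPKM + 1) among 13392 genes. RASSF8 was nearest to SLC2A3 at a distance of 0.951, with 5.35, 5.26 and 10.4 FPKM in the calves and 149, 153 and 133 FPKM in the bulls. SYNJ2 was nearest to SLC2A8 at 0.684 and PAQR8 to SLC2A1 at 0.481, the latter with 42.8 FPKM in calf 3 against 3.55 to 6.35 elsewhere. SEC63 was nearest to SLC16A1 (0.299), MKX to SLC16A3 (0.387) and CPPED1 to SLC16A7 (0.562). RPL36AL was nearest to BSG (0.604) and CYP26B1 to EMB (0.344). With calf 3 left out, SEC63 and CYP26B1 were again nearest to SLC16A1 (0.222) and EMB (0.344), and the other nearest genes changed. They were then PDSS1 for SLC2A1 (0.155), CREM for SLC2A3 (0.231), OCEL1 for SLC2A8 (0.264), PLEKHG5 for SLC16A3 (0.261), RAD21L1 for SLC16A7 (0.329) and EIF4A2 for BSG (0.399).

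Genes that share the pathway were described from 5 lists of 49 symbols, of which 46 were found, in 47 entries. Of these entries, 31 passed the filter, 8 were called higher in bulls, 6 lower and 17 not called, where 35.7% and 9.61% of all genes tested were called higher and lower. Without calf 3, 7 were called higher and 8 lower, against 37.9% and 13.6% of all genes. The counts of the single lists below rest on 3 to 9 tested genes each and are to be read against the same shares.

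LDHC, the lactate dehydrogenase of male germ cells, measured 3.21, 4.92 and 0.168 FPKM in the calves and 335, 378 and 352 FPKM in the bulls, a log2 fold change of 6.85 (limma adjusted p = 0.000202), 6.15 without calf 3. LDHA, which encodes the muscle-type subunit, was higher in bulls by 2.15 (adjusted p = 0.000451), 1.99 without calf 3. LDHB, which encodes the heart-type subunit, was lower at 235, 222 and 293 FPKM in the calves against 57.7, 53.9 and 61.2 FPKM in the bulls, a log2 fold change of -2.09 (adjusted p = 0.000202), -1.97 without calf 3. MPC1L, a mitochondrial pyruvate carrier known from testis, was called higher at 3.96 (adjusted p = 2.71e-05), but it stood at 0.00855 to 0.318 FPKM in the calves and passed the filter only through the bulls, at 15.2 FPKM or more, so that its difference is partly fixed by the filter. MPC1, MPC2 and LDHD were not called, which left 3 higher and 1 lower of 7 genes tested, against 35.7% and 9.61% of all genes, with the same 4 calls without calf 3.

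Among the other SLC2A genes, 6 of 10 entries were tested, with 3 called higher, 1 of them through an AS transcript, and 1 lower, against 35.7% and 9.61% of all genes. SLC2A5 encodes a fructose carrier and has a pair of entries, of which the one on chromosome 16 was higher by 2.48 (limma adjusted p = 0.00560) and the one on chromosome 14 by 1.68 (adjusted p = 0.0302), or 3.02 and 1.97 without calf 3. The latter call was lost in 8 of 18 alternatives, among them a replicate block (adjusted p = 0.0788), quantile normalization (adjusted p = 0.124), median centring (adjusted p = 0.0904), and leaving out calf 1, calf 2, bull 1 or bull 2 (adjusted p = 0.0743 to 0.0913). SLC2A13, a proton-coupled inositol carrier, was lower at -1.44 (adjusted p = 0.00406), -1.19 without calf 3. SLC2A11 was called higher at 2.48 (adjusted p = 0.00479), yet SLC2A11-AS3 supplied 9.19 to 9.53 of its 10.2 to 10.5 FPKM in the bulls, and without its AS transcripts the log2 fold change was -0.52 (adjusted p = 0.386), and 0.04 without calf 3. SLC2A11 stood at 1 FPKM or above in the bulls and in calf 3 (3.23 FPKM) only, so that its call is partly fixed by the filter as well. Of the 6 pathway genes tested that held AS or OT transcripts, SLC2A11 was the 1 whose call with all libraries differed without them.

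Among the other SLC16A genes, 6 of 11 were tested. SLC16A11 was higher in bulls by 2.39 (limma adjusted p = 0.000231), 2.41 without calf 3, and SLC16A9 was called lower at -1.24 (adjusted p = 0.00485), -1.03 without calf 3. SLC16A9 passed the filter only through the calves, at 1.05 to 2.77 FPKM against 0.149 to 0.242 FPKM in the bulls, so that its difference is partly fixed by the filter. The same holds in part for SLC16A11, which was at 1 FPKM or above in the bulls and in calf 1 (1.40 FPKM) only. SLC16A10, an aromatic amino acid carrier, was called lower only without calf 3, at -1.38 (adjusted p = 0.000877). None of the 3 sodium-coupled SLC5A carriers tested was called with all libraries. SLC5A8, a sodium-coupled monocarboxylate carrier, was called lower without calf 3 at -1.18 (adjusted p = 0.000618), but not once AS and OT transcripts were left out as well (-0.93).

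Of the regulators and partners of the carriers, 9 of 11 were tested. ARRDC4, an arrestin-domain protein that acts on glucose uptake, was called higher at 1.07 (limma adjusted p = 0.00417). GIPC1, which binds the tail of GLUT1, was lower at -1.24 (adjusted p = 0.00418), and HIF1A, the oxygen-sensitive transcription factor that acts on SLC2A1 and SLC16A3, was lower at -1.18 (adjusted p = 0.0137). MLXIP, a glucose-sensing transcription factor, was lower at -1.001 (adjusted p = 0.00368). It stood at 3.51, 3.24 and 2.22 FPKM in the calves and 0.924, 1.04 and 0.962 FPKM in the bulls. MLXIP thus passed the filter through the calves and bull 2 only, so that its difference is partly fixed by the filter. Without calf 3, ARRDC4 and HIF1A fell short of the fold for a call, GIPC1 and MLXIP were called at -1.09 and -1.15, and TXNIP, an inhibitor of glucose uptake, was called lower at -1.43 (adjusted p = 0.00157). The calls of ARRDC4 and HIF1A were each lost in several alternatives, ARRDC4 in 8 of 19 with log2 fold changes down to 0.19, and HIF1A in 7 of 19 with values up to -0.40. MLXIP lost its call in 6 of 18, with values up to -0.85.

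**Figure D5:**
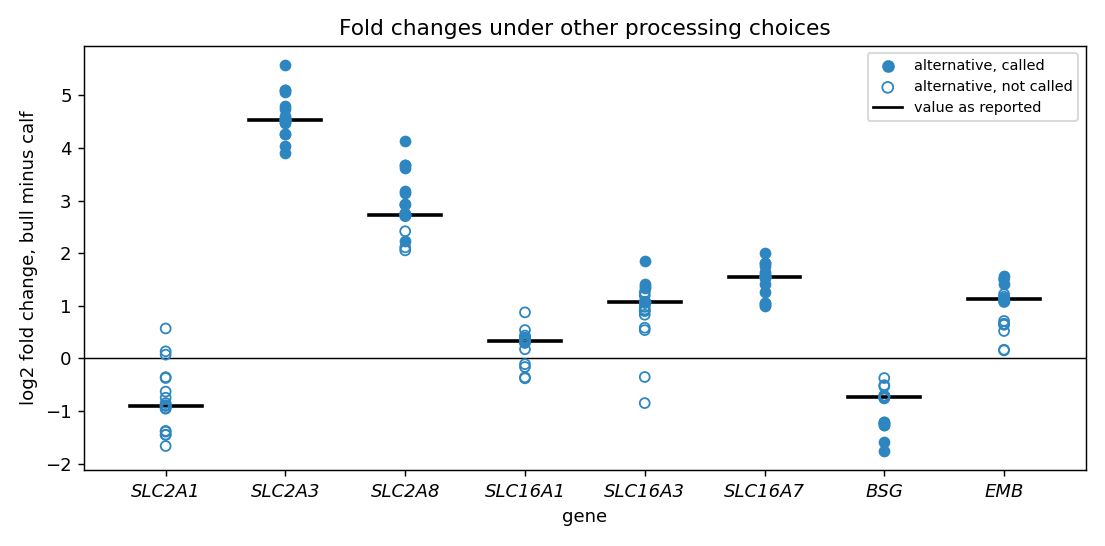
Log2 fold change (bull minus calf) of the 8 genes under each processing alternative, filled where called and open where not, with a black line at the value reported with all libraries. SLC2A3 (3.90 to 5.58) and SLC16A7 (1.005 to 2.01) are called under each alternative, SLC2A1 and SLC16A1 under none, and SLC16A3 lies on both sides of 0. For genes that hold no AS or OT transcript, such as SLC2A3 and SLC16A7, leaving those out repeats the same fold changes.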

How the data were processed

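The tables hold testis RNA levels of 3 calves and 3 bulls, grouped by the sample labels. According to the Methods, the authors removed ribosomal reads with Bowtie2, mapped to UMD3.1.1 with TopHat2 and assembled with StringTie; the tool behind the gene values is not given in the sources used here. The deposited values are FPKM per gene and per transcript. A member's FPKM equalled the sum of its transcripts within 3e-06. The positions overlapped RefSeq loci of the same symbol on ARS-UCD2.0 for 16342 of 16434 matched symbols, including all 8 genes, so they are read as ARS-UCD positions.

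Levels were compared as log2(FPKM + 1) with limma 3.58.1 (empirical Bayes with trend, R 4.3.3), keeping features at 1 FPKM or more in at least 3 libraries, with Benjamini-Hochberg adjustment over all features. Depth could not be recovered from FPKM, so no counting intervals are given. The procedure was tested on simulated data. Shares and ratios within a library were compared by exact two-sided permutation, over 20 groupings with all 6 libraries and over fewer without calf 3. Figures used matplotlib 3.10.9.

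The genes, lists and tests were chosen with earlier results of these data known. Named were the 8 genes, their transcripts with a mean of at least 1 FPKM or named AS or OT, the pathway genes called, and the nearest genes of each. Each library came from 1 animal, so p-values measure the spread between these animals. The alternatives were another pseudocount (0.1), other filters and scalings, array weights, a replicate block and leaving out each library. The replicate numbers were not used as pairs, as same-numbered calves and bulls correlated below the 0.1 set for pairing. Each calf still correlated best with the bull of its own number, so that pairing is not excluded.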

Additional observations from a re-analysis of the deposited data

How the results depend on the processing

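SLC2A3 and SLC16A7 were called under all 19 alternatives, and SLC2A1 (-1.67 to 0.57) and SLC16A1 (-0.38 to 0.88) under none, with both signs. As SLC2A3 and SLC16A7 hold no AS or OT transcript, leaving those out could not change their fold changes. Alternatives that combine calf 3 left out with a scaling, or that leave out AS and OT transcripts, were chosen after seeing the data. Requiring an FPKM of at least 1 in all 6 libraries called 3358 genes against 8215 and 3 transcripts of the 8 genes against 6, and EMB was not tested. Quantile normalization and median centring also called 3 transcripts each. Leaving out 1 library gave 2 to 5 called members. SLC2A8 lost its call under TPM (2.92) and quantile normalization (2.06), and ranged from 2.11 to 3.67 with 1 library left out, called only without calf 3. SLC16A3 lost its call without a filter (1.08), under TPM (1.26), quantile normalization (0.54; 0.83 without calf 3) and median centring (0.58; 0.93 without calf 3), ranged from 0.90 to 1.42 with 1 library left out, called only without calf 3, and reversed without AS and OT transcripts (-0.85; -0.35 without calf 3), where the removal of SLC16A3-OT1 is the change made. BSG was called under quantile normalization (-1.21, and -1.59 without calf 3) and array weights (-1.23). Without calf 3, it was also called as deposited (-1.27) and under median centring (-1.76). BSG holds no AS or OT transcript, so leaving those out repeated the same fold changes. Its values ran from -1.27 to -0.37 when 1 library was left out. EMB was called under TPM (1.42; 1.10 without calf 3) and ranged from 0.66 to 1.57, the highest and a call without calf 2. SLC2A11 reversed without AS transcripts (-0.52), and SLC5A2 under quantile normalization without calf 3 (-1.08). With every gene of the family in the sum, the bull minus calf share was -25.4 points for SLC2A1, 5.42 for SLC2A8, -8.47 for SLC16A1 and 6.92 for SLC16A7, against -51.5, -0.42, -18.0 and 13.1. The SLC16A1 share over the whole family was 41.5%, 45.3% and 37.8% in the calves and 41.2%, 20.3% and 37.6% in the bulls. It overlapped between the groups (exact permutation p = 0.2), and the lowest value was that of bull 2 alone. Except where a construction is named, the cause was not tested.

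With a replicate block, 8128 genes, 4 of the 8 members and 6 of their transcripts were called. Same-numbered calves and bulls correlated at 0.0277, 0.0246 and 0.0341 in their deviations, under the 0.1 set for pairing, although each of the 3 calves correlated best with the bull of its own number. FPKM without counts limits what can be said of values near 0, such as SLC16A3-201 in bulls.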

Other observations

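Among the other monocarboxylate carriers, SLC16A8, which encodes MCT3 and is known from the retinal pigment epithelium, stood at 67.7 FPKM in bull 2 against 0.244 in bull 1, 0.483 in bull 3 and 0.112 to 0.174 in the calves. It was singled out after its values were seen, and it did not pass the filter. The annotated transcript SLC16A8-201 supplied 60.5 FPKM and SLC16A8-AS1 supplied 7.27 FPKM of it. It was the highest of 15 genes above 5 FPKM in bull 2 and below 1 in all other libraries, a set that also holds SLC5A4, a sodium-coupled carrier family member, at 11.9 FPKM. The same count was 17 for bull 1, 27 for bull 3, 7 for calf 1, 4 for calf 2 and 355 for calf 3. The neighbouring PICK1 measured 22.4 FPKM in bull 2 against 28.5 and 29.0 FPKM in bull 1 and bull 3. In the sum over the whole family, SLC16A8 lowered the share of SLC16A1 to 20.3% in bull 2, against 41.2% and 37.6% in bull 1 and bull 3. No test was made of this single library.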
